A study of Homo sapiens with 60 samples.

Results

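The 8 genes described here encode proteins of pericellular proteolysis: the plasminogen activators PLAU (urokinase) and PLAT (tissue-type activator), the urokinase receptor PLAUR, the tissue inhibitors of metalloproteinases TIMP1, TIMP2 and TIMP3, and the matrix metalloproteinases MMP7 and MMP14. They were chosen by name, with earlier results of these data known. They were found by matching Ensembl identifiers to symbols, and are 8 of the 60675 genes in the deposited table. All 8 passed the filter on low counts that left 17129 genes for testing.

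Urokinase bound to PLAUR on the cell surface turns plasminogen into plasmin, a broad serine protease that cuts fibrin and matrix and can activate some metalloproteinases. MMP14 is a membrane-anchored collagenase that activates pro-MMP2 in a complex that also holds TIMP2. MMP7 is a small secreted metalloproteinase made mostly by epithelial cells. TIMPs bind and block the active metalloproteinases, and TIMP3 is the one held in the matrix, where it also inhibits ADAM-family proteases. In lung carcinoma cells these genes are studied for their part in invasion.

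RNA was sequenced from A549, an established line of human non-small cell lung carcinoma cells, after 24 h of treatment, in 20 groups of 3 libraries. The control received DMSO, given as 0.1% in the sample labels and 2% in the series' design text, and wortmannin, an inhibitor of PI3-kinase, was used at 10 µM as positive control. No DMSO share was recorded for the other groups, so the part of the solvent in comparisons with vehicle was not tested. Hot-water extracts of 6 crude drugs made up the other 18 groups. Doses of 500, 100 and 20 µg/mL were used for 4 of them: the gingers Zingiberis Rhizoma Recens (ZRR; Recens means fresh) and Zingiberis Rhizoma (ZR), Pinelliae Tuber (PT), and the jujube fruit Zizyphi Fructus (ZF). The doses were 230, 46 and 9.2 µg/mL for Scutellariae Radix (SR) and 130, 26 and 5.2 µg/mL for Coptidis Rhizoma (CR), since the design text lowers the doses of extracts with an inhibitory concentration under 500 µg/mL. The 3 doses of an extract are called high, medium and low here, and doses of SR and CR are not matched to those of the other extracts. All groups are the same single cell line, and nothing in the labels shows that the replicates came from separate cultures: a p-value here is set against the spread of these libraries, which may be technical. The titles of all 60 libraries carry the same label, Second_BatchA. Sample codes of vehicle, wortmannin and extract libraries begin with different numbers, and so do those of the gingers, of PT and SR, and of CR and ZF. What that number marks cannot be told apart from treatment in a comparison with vehicle, of a ginger with PT or ZF, or of PT with ZF, whereas the doses of an extract, and the gingers, share it.

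Libraries held 17420400 to 36479600 estimated counts (totals to 6 digits). Levels are given as CPM, counts scaled to a common library size by the TMM method, with the SD of 3 libraries after ±; the value after ± in a log2 fold change is its standard error. A gene was called where edgeR's quasi-likelihood test gave a Benjamini-Hochberg adjusted p under 0.05 over all 17129 genes of that comparison. Of 8 markers of A549 or lung carcinoma epithelium, some were high in every library, with KRT8 at 2027 to 4052 CPM and ALDH1A1 at 5682 to 7548 CPM. Others were lower: CDH1 stood at 19.9 to 35.5 CPM, KRT19 at 17.3 to 36.3 CPM and EPCAM at only 3.61 to 6.96 CPM. Of 5 markers of alveolar type II cells 1 passed the filter, and their summed level was at most 1.70 CPM in any library. Of 5 endothelial markers none passed the filter, and their summed level was at most 0.354 CPM in any library. Of 6 fibroblast markers 4 passed, with a summed level of 5.01 to 9.26 CPM over the libraries and THY1 the highest (mean 4.53 CPM), while DCN reached at most 0.144 CPM. Of 6 markers of blood cells and macrophages 3 passed, with a sum of 6.20 to 14.1 CPM, mostly CD68 (mean 6.67 CPM), while PTPRC reached at most 0.0476 CPM. Group means of these sums ran from 5.81 to 8.64 CPM and from 8.46 to 13.1 CPM, and their part in the results was not tested. The first principal component was taken on each library's deviations from its group mean. The 3 libraries farthest out on it, a fixed number, were ZRR low replicate 2, ZR low replicate 3 and ZF high replicate 2. In them short transcripts stood higher against long ones than in their replicates. Without these 3 libraries all 60 calls on the 8 genes described below (33 against vehicle, 14 between doses and 13 between extracts) were still made. Other libraries, such as PT high replicate 2 and CR low replicate 3, leaned the same way to a lesser degree.

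Per kilobase of the longest annotated transcript, TIMP1 and TIMP2 were the most abundant of the 8, with means over all libraries of 68.8 and 64.7 CPM per kb. PLAU followed at 19.8 and PLAUR at 9.71 CPM per kb. The metalloproteinases and TIMP3 were scarce, with MMP7 at 3.82, TIMP3 at 1.76 and MMP14 at 0.896 CPM per kb, and PLAT was the lowest at 0.475 CPM per kb. A library held 3623 to 8970 counts of TIMP2 and 24 to 75 of PLAT, so the standard error of a log2 fold change was about 0.04 for TIMP2 and 0.17 for PLAT. PLAU, PLAUR, TIMP1, TIMP2 and TIMP3 overlap other annotated genes, and none of those averaged above 0.514 CPM.

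**Figure D1:**
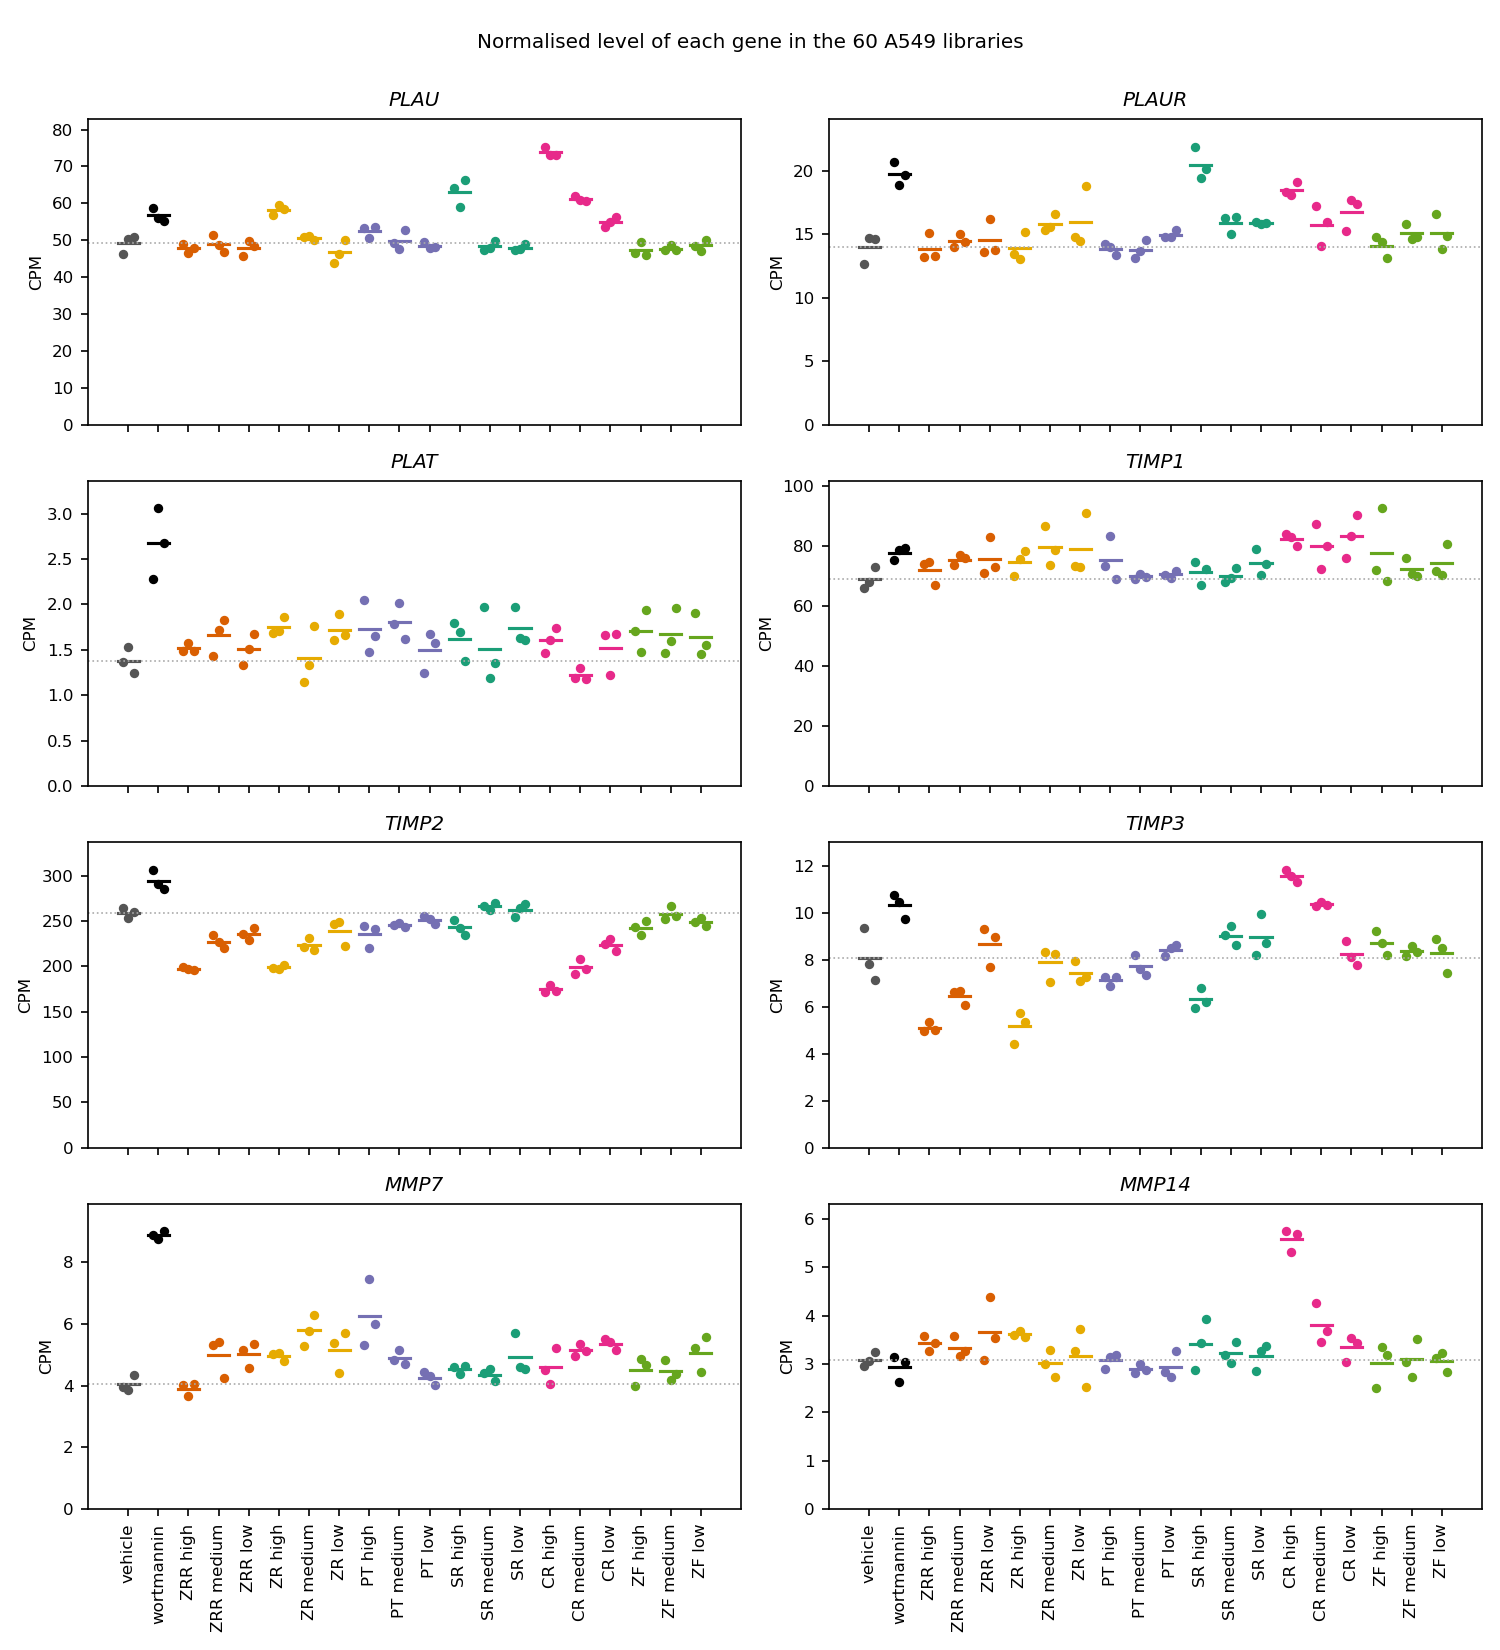
Level of each gene in CPM (vertical axes, linear, from 0) in the 60 libraries; points are libraries, short lines are group means and the dotted line is the vehicle mean. PLAU, TIMP3 and MMP14 stand highest in the CR high group (73.8, 11.6 and 5.59 CPM), and PLAT, TIMP2 and MMP7 stand highest in the wortmannin group (2.67, 294 and 8.87 CPM).

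Across the 19 comparisons with vehicle the 8 genes gave 33 calls in 152 tests, 23 higher and 10 lower. They were called in 10 of the treatments, where between 0.28% (ZRR medium) and 35.1% (CR high) of all genes were called. In the other 9 (all 3 ZF doses, the medium and low doses of PT and SR, and the low doses of ZRR and ZR) edgeR called 0, with 0 to 4 of the genes at an unadjusted p under 0.05, and DESeq2 called 1, TIMP2 with ZRR low. In those 9 comparisons between 0% and 0.111% of all genes were called (0.0175% for PT medium). An unadjusted p under 0.05 (edgeR) was held by 557 (PT low) to 3061 (ZRR low) of the 17129 genes. TIMP2 was called most often, lower in 7 treatments and higher in 1. PLAU was only ever called higher, in 6 treatments, and TIMP3 was called higher in 3 and lower in 3. PLAT and MMP14 were each called in 1 treatment. All comparisons with vehicle share the same 3 vehicle libraries.

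**Figure D2:**
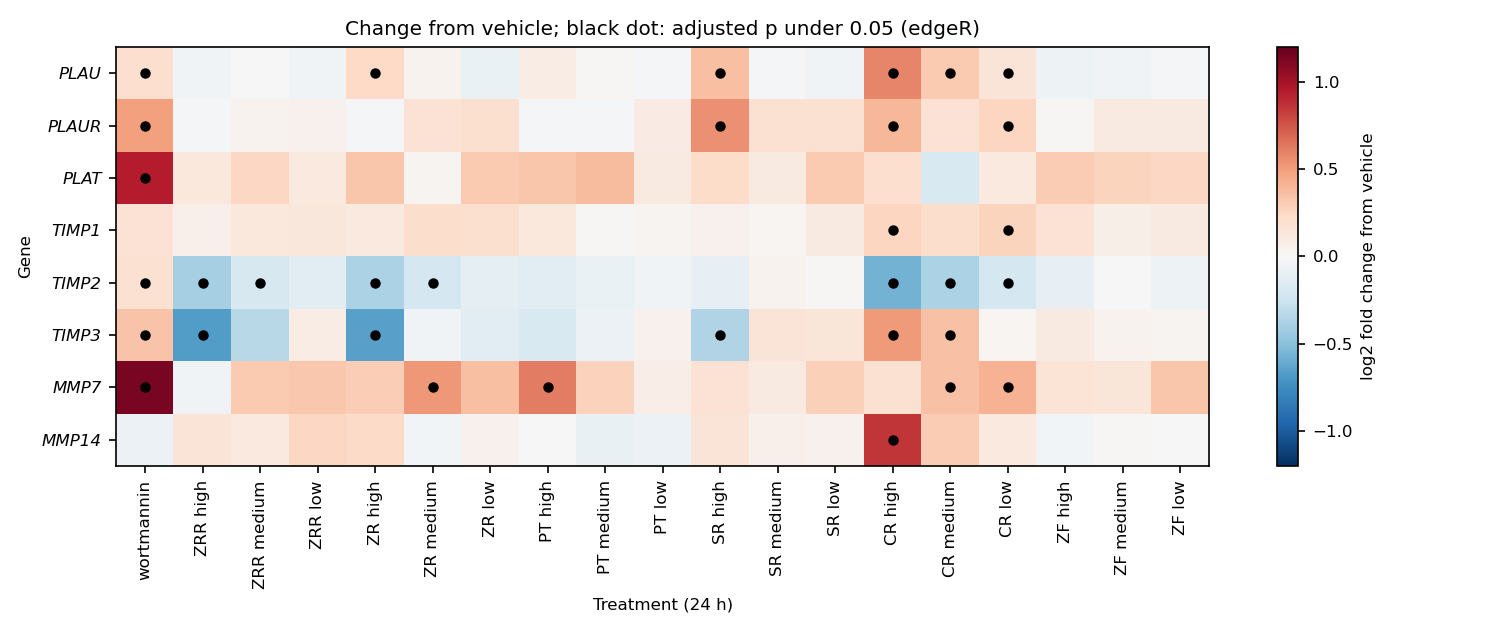
Colour gives the log2 fold change from vehicle of each gene (rows) in the 19 treatments (columns), red for higher and blue for lower, and a black dot marks an adjusted p under 0.05 (edgeR). TIMP2 is blue with a dot at the high and medium doses of ZRR and ZR and at each dose of CR. Its group mean also lay under that of vehicle, without a dot, at the low doses of ZRR and ZR, in SR high and in every group of PT and ZF. TIMP3 is blue with a dot at the high doses of ZRR, ZR and SR. It is red with a dot for CR high, CR medium and wortmannin.

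CR gave the most calls of the 6 extracts on the members, and also the largest shares of all genes called at each dose level. With it PLAU, TIMP3 and MMP14 were higher and TIMP2 lower at the high than at the low dose. At 130 µg/mL, 5 of the 8 rose (PLAU, PLAUR, TIMP1, TIMP3 and MMP14) and TIMP2 fell, in a comparison where 35.1% of all genes tested were called. At the medium dose 4 of the 8 were called, where 23.2% of all genes were, and at the low dose 5, where 17.7% were. PLAU, which makes plasmin, stood at 46.4, 50.4 and 51.0 CPM in the vehicle libraries and at 75.3, 73.0 and 73.1 CPM with CR high. The CR high libraries all lay above every other library of the series for this gene. The log2 fold change was 0.58 ± 0.05 (edgeR, adjusted p = 3.77e-15), a 1.5-fold rise. PLAU rose at each dose of CR: the change was 0.31 ± 0.05 at 26 µg/mL (edgeR, adjusted p = 5.03e-07) and 0.16 ± 0.05 at 5.2 µg/mL (edgeR, adjusted p = 0.0157). The high dose lay above the low by 0.43 ± 0.04 (edgeR, adjusted p = 1.30e-10), where 25.4% of all genes were called. With no filter on low counts, or with only the libraries compared in the fit, PLAU was not called at the low dose. The call at the low dose was not made without vehicle replicate 1 or CR low replicate 3, and with a term for the length gradient it was 0.10 (edgeR, adjusted p = 0.147; range over 7 alternatives 0.00571 to 0.174).

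PLAUR, the receptor that holds urokinase at the cell surface, was at 12.7, 14.7 and 14.7 CPM with vehicle and at 18.3, 18.1 and 19.1 CPM with CR high. No CR high library fell into the vehicle range, and the log2 change was 0.40 ± 0.08 (edgeR, adjusted p = 7.84e-05). At the medium dose PLAUR stood at 15.8 ± 1.60 CPM, with 1 library inside the vehicle range, and did not pass the test (0.17 ± 0.08; edgeR, adjusted p = 0.137). At the low dose it was called at 0.26 ± 0.08 (edgeR, adjusted p = 0.0249). The call was lost without vehicle replicate 1, CR low replicate 2 or CR low replicate 3 (edgeR, highest adjusted p 0.166). It was also lost with the length term and with only the libraries compared in the fit (edgeR, highest adjusted p 0.316). High against low, the difference in PLAUR was 0.14 ± 0.08 with a 95% interval of -0.02 to 0.30 (edgeR, adjusted p = 0.198). With the length term that difference was 0.23 and passed (edgeR, adjusted p = 0.00704). PLAT, the other activator, was not called at any CR dose, with 1.61 ± 0.141, 1.22 ± 0.0667 and 1.52 ± 0.255 CPM from high to low against 1.38 ± 0.145 CPM in vehicle (SD, n = 3).

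Of the metalloproteinases, MMP14 rose with CR high alone among the 19 treatments. Its level was 2.95, 3.06 and 3.25 CPM with vehicle and 5.75, 5.32 and 5.69 CPM with CR high. These 3 libraries were the highest of all 60 for the gene, and the log2 change was 0.86 ± 0.12 (edgeR, adjusted p = 6.59e-08), or 1.81-fold. At the medium dose all 3 libraries, at 4.27, 3.46 and 3.69 CPM, also lay above the vehicle range, but the change of 0.30 ± 0.12 did not pass (edgeR, adjusted p = 0.0729). The difference between high and low dose was 0.74 ± 0.12 (edgeR, adjusted p = 2.57e-06). MMP7 was called higher at the low dose (0.41 ± 0.11; edgeR, adjusted p = 0.00877) and the medium dose (0.35 ± 0.11; edgeR, adjusted p = 0.0165) and not at the high dose (0.19 ± 0.11; edgeR, adjusted p = 0.209). High against low, MMP7 differed by -0.23 ± 0.11 (edgeR, adjusted p = 0.119), so the doses were not told apart. With no filter on low counts MMP7 was not called at the medium dose. Both MMP7 calls were lost with the length term, at 0.29 for the low dose (edgeR, adjusted p = 0.114; range over 7 alternatives 0.0051 to 0.114) and 0.27 for the medium dose (edgeR, adjusted p = 0.0822; range 0.0132 to 0.11), and that of the medium dose was lost without vehicle replicate 1, vehicle replicate 2 or CR medium replicate 2.

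The 3 inhibitors moved in different directions with CR. TIMP2, the inhibitor that also serves in pro-MMP2 activation, was at 265, 253 and 260 CPM with vehicle and fell to 172, 179 and 173 CPM with CR high. The CR high libraries were the 3 lowest of the series. The log2 change was -0.57 ± 0.04 (edgeR, adjusted p = 1.32e-16), so that the level fell by 32.6%, followed by -0.38 ± 0.04 at the medium dose (edgeR, adjusted p = 1.40e-10) and -0.21 ± 0.04 at the low dose (edgeR, adjusted p = 0.000173). The high dose lay under the low by -0.36 ± 0.04 (edgeR, adjusted p = 7.82e-10). TIMP3, the matrix-bound inhibitor, rose over the same doses, from 9.35, 7.80 and 7.13 CPM with vehicle to 11.8, 11.6 and 11.3 CPM with CR high. Its log2 change was 0.51 ± 0.08 at the high dose (edgeR, adjusted p = 2.30e-06) and 0.35 ± 0.09 at the medium dose (edgeR, adjusted p = 0.00151), and at the low dose, 0.02 ± 0.09, it was not called (edgeR, adjusted p = 0.933). The high dose of CR lay above the low in TIMP3 by 0.49 (edgeR, adjusted p = 9.03e-06). TIMP1, a soluble inhibitor, was at 66.2, 68.0 and 73.1 CPM with vehicle and at 84.2, 83.1 and 80.2 CPM with CR high, all above the vehicle range. The change of 0.26 ± 0.08 (edgeR, adjusted p = 0.0132) was not called without vehicle replicate 1, vehicle replicate 2, CR high replicate 1 or CR high replicate 2 (highest adjusted p 0.0757), and high against low it differed by -0.01 ± 0.08 (edgeR, adjusted p = 0.932), or with the length term by 0.14 (edgeR, adjusted p = 0.00359).

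**Figure D3:**
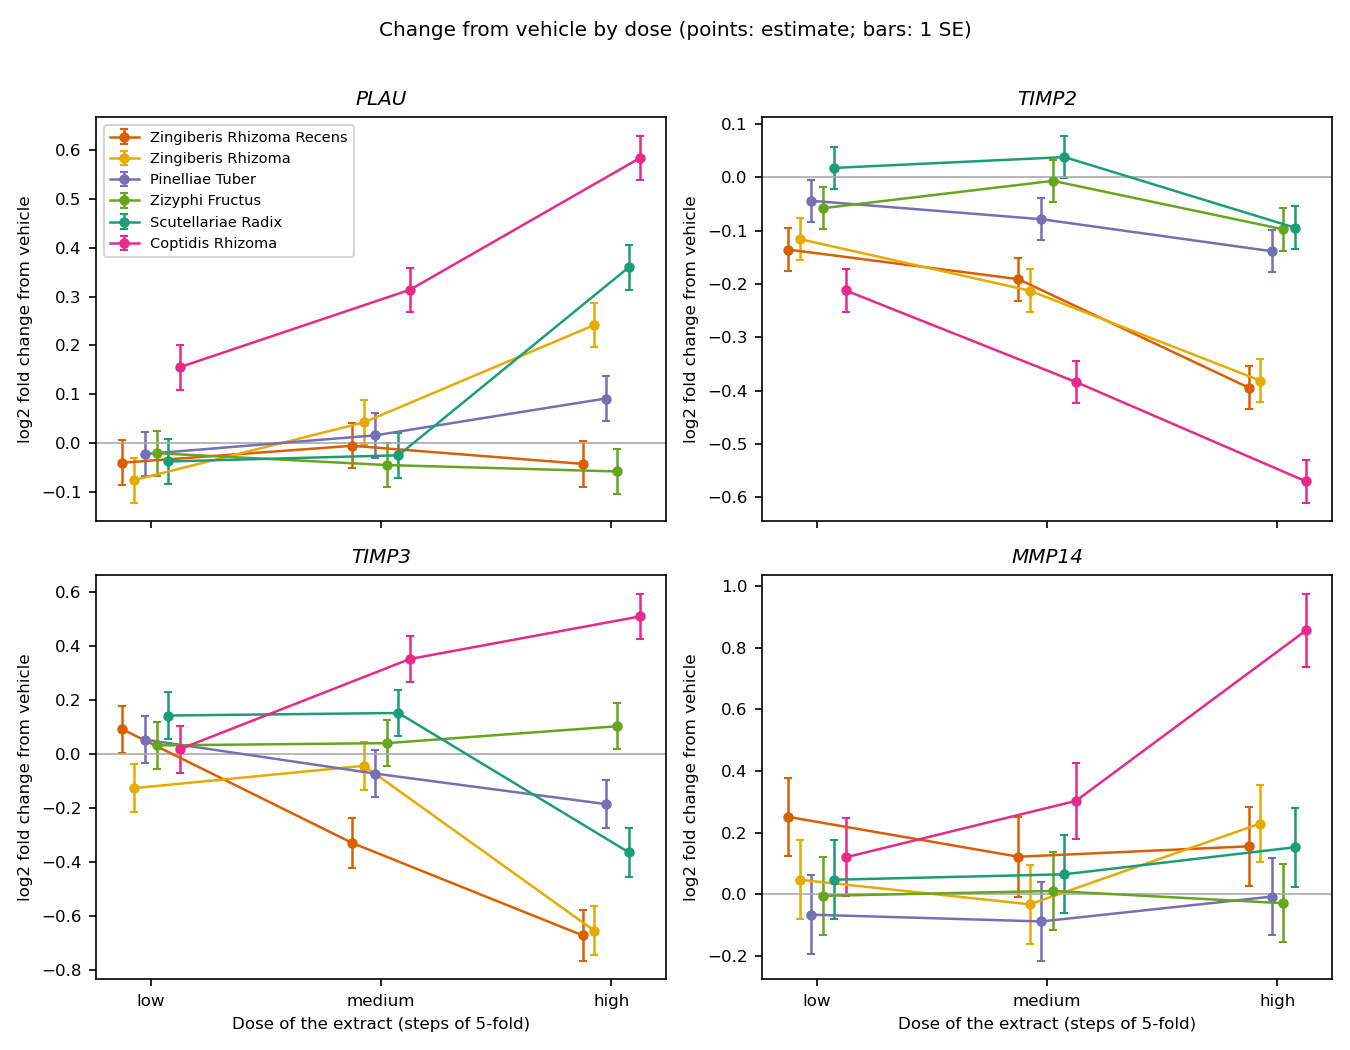
Log2 fold change from vehicle (vertical axes; points are estimates, bars 1 standard error) of PLAU, TIMP2, TIMP3 and MMP14 at the low, medium and high dose of each extract, in steps of 5-fold. For CR, PLAU reaches 0.58 and TIMP2 -0.57 at the high dose; TIMP3 ends at 0.51 for CR but at -0.67 for ZRR and -0.65 for ZR.

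RefSeq promoter entries (build GRCh38.p14) matched 6 of the 8 genes with 7 start sites, and the 250 bases before the start are shown, 5′ to 3′ on the gene's strand, for the 3 genes with the largest called changes from vehicle among those with an entry. Capitals mark matches, on either strand, to 3 motifs. The AP-1 motif searched for was TGANTCA, bound by the Fos and Jun family of transcription factors. The TATA box, which helps place the start of transcription, was searched for as TATAAA. The GC box, bound by Sp1 and related factors, was searched for as GGGCGG.
MMP14, chr14:22836335-22836584, + strand: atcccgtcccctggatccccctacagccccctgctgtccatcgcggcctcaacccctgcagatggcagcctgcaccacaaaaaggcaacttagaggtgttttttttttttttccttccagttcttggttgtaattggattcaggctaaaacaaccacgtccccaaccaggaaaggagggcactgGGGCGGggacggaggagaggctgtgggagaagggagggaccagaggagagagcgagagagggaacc
TIMP3, chr22:32801455-32801704, + strand: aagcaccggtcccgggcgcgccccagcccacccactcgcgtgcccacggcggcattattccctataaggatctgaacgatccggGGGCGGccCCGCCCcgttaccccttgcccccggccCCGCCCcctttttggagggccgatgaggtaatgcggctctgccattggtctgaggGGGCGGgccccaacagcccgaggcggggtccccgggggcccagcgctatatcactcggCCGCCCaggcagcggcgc
MMP7, chr11:102530748-102530997, - strand: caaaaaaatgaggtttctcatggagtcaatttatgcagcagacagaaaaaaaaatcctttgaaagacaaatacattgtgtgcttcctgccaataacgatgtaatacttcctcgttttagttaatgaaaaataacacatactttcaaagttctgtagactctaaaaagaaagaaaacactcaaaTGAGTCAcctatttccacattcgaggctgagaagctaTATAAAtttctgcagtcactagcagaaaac
The MMP14 window holds 1 GC box 66 bases before the start, the TIMP3 window 5 GC boxes, and the MMP7 window 1 AP-1 match 67 bases and 1 TATA box 30 bases before the start. PLAUR also had 1 AP-1 match, 186 bases before its start, and the windows of the other 4 genes held none. Among all 35116 promoter windows of the same length 6.57% held the AP-1 motif, 10.7% the TATA box and 42.6% the GC box. These are matches of letters, and MMP7 and PLAUR, the 2 genes with an AP-1 match, had a correlation of 0.38 over the 20 group means of log2 CPM, which come from the same libraries.

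Wortmannin raised 6 of the 8 genes and lowered none, in a comparison where 25.3% of all genes were called. MMP7 had the largest rise of any member in any treatment. It was at 3.95, 3.84 and 4.34 CPM with vehicle and at 8.87, 8.74 and 9.002 CPM with wortmannin, higher than in every other library of the series. The log2 change was 1.14 ± 0.11 (edgeR, adjusted p = 7.60e-12), or 2.20-fold. PLAT, for which wortmannin gave the only call, went from 1.37, 1.53 and 1.24 CPM to 2.28, 3.06 and 2.68 CPM, a change of 0.94 ± 0.17 (edgeR, adjusted p = 1.75e-05). No library of another group reached the wortmannin range of PLAT. PLAUR was at 20.7, 18.9 and 19.7 CPM, a change of 0.50 ± 0.08 (edgeR, adjusted p = 4.95e-06), while its ligand PLAU changed less, by 0.20 ± 0.05 (edgeR, adjusted p = 0.000559). TIMP2 rose to 307, 291 and 285 CPM, by 0.18 ± 0.04 (edgeR, adjusted p = 0.000397), which was the only treatment in which it was called higher. With no filter on low counts that call had an adjusted p of 0.0512 (edgeR; range over 7 alternatives 1.74e-06 to 0.0512). TIMP3 rose by 0.34 ± 0.09 (edgeR, adjusted p = 0.00174), TIMP1 stood at 77.9 ± 2.02 against 69.1 ± 3.57 CPM without passing (0.17 ± 0.08; edgeR, adjusted p = 0.131), and MMP14 was at 2.94 ± 0.278 against 3.09 ± 0.154 CPM (-0.07 ± 0.13; edgeR, adjusted p = 0.795). TIMP1 was called with the length term, at 0.21 (edgeR, adjusted p = 5.24e-06), and also without the 3 outlying libraries and with only the libraries compared.

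SR at 230 µg/mL raised urokinase and its receptor together and lowered TIMP3, 3 of 8 genes where 23.9% of all genes were called. PLAUR reached its highest level of the series here, at 21.9, 19.5 and 20.1 CPM, although the range overlapped that of wortmannin. Its change from vehicle was 0.55 ± 0.08 (edgeR, adjusted p = 7.54e-07). PLAU was at 64.3, 58.9 and 66.3 CPM, a change of 0.36 ± 0.05 (edgeR, adjusted p = 2.00e-08). TIMP3 fell to 5.94, 6.79 and 6.22 CPM, all under the vehicle libraries, by -0.36 ± 0.09 (edgeR, adjusted p = 0.00203); without vehicle replicate 1, the highest of the vehicle libraries, it was not called. At 46 and 9.2 µg/mL edgeR called 0 of the 8 genes, with 1 and 2 at an unadjusted p under 0.05, and DESeq2 called 0 as well. Of all 17129 genes, 722 and 903 had an unadjusted p under 0.05 (edgeR) at these doses. High against low, PLAU differed by 0.40 ± 0.05 (edgeR, adjusted p = 1.88e-09), PLAUR by 0.37 ± 0.08 (edgeR, adjusted p = 0.000552) and TIMP3 by -0.51 ± 0.09 (edgeR, adjusted p = 2.25e-05), where 20.4% of all genes were called. TIMP2 was lower by -0.11 ± 0.04 (edgeR, adjusted p = 0.0389), a call that leaving out SR high or SR low replicate 2 or 3 removed. TIMP1 (71.5 ± 3.87 CPM) and MMP7 (4.55 ± 0.138 CPM) were not called with SR high, and TIMP2 was called against vehicle by DESeq2 and without the 3 outlying libraries, though not by edgeR on all libraries.

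Both gingers at 500 µg/mL lowered TIMP2 and TIMP3 by like amounts, and ZR raised PLAU. ZRR high gave 2 calls of 8 where 4.03% of all genes were called, and ZR high gave 3 where 5.35% were. TIMP2 was at 199, 197 and 196 CPM with ZRR high and at 199, 198 and 202 CPM with ZR high, with every library under all vehicle libraries. The change was -0.39 ± 0.04 for ZRR (edgeR, adjusted p = 4.93e-10) and -0.38 ± 0.04 for ZR (edgeR, adjusted p = 6.39e-10). TIMP3 was at 4.96, 5.34 and 5.02 CPM with ZRR high and at 4.40, 5.74 and 5.34 CPM with ZR high, the 2 lowest groups of the series. It changed by -0.67 ± 0.09 (edgeR, adjusted p = 1.32e-06) and by -0.65 ± 0.09 (edgeR, adjusted p = 1.16e-06), so that it fell by 37.2% with ZRR and fell by 36.4% with ZR. TIMP2 was lower at 100 µg/mL as well, by -0.19 ± 0.04 with ZRR (edgeR, adjusted p = 0.0153) and -0.21 ± 0.04 with ZR (edgeR, adjusted p = 0.00334), against a background of 0.28% and 0.922% of all genes. The first of these was not called without vehicle replicate 1 or 3 or without ZRR medium replicate 2 or 3, nor with no filter on low counts. TIMP3 at the medium dose was 6.63, 6.67 and 6.06 CPM with ZRR, under the vehicle range without passing the test (edgeR, adjusted p = 0.099), and 7.89 ± 0.711 CPM with ZR (edgeR, adjusted p = 0.787).

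Between 500 and 20 µg/mL, TIMP3 differed by -0.76 ± 0.09 for ZRR (edgeR, adjusted p = 8.60e-08) and -0.53 ± 0.09 for ZR (edgeR, adjusted p = 9.94e-05), and TIMP2 by -0.26 ± 0.04 (edgeR, adjusted p = 1.26e-05) and -0.27 ± 0.04 (edgeR, adjusted p = 5.24e-06). The background was 4.17% of genes for ZRR and 4.64% for ZR. With only the 6 libraries of the 2 groups in the fit, TIMP3 for ZRR was still called, while TIMP2 for ZRR (edgeR, adjusted p = 0.0518) and the 3 calls for ZR (highest adjusted p 0.219) were not. PLAU went from 43.9, 46.2 and 50.1 CPM at the low dose of ZR to 56.8, 59.5 and 58.4 CPM at the high dose, a difference of 0.32 ± 0.05 (edgeR, adjusted p = 2.11e-06). With ZRR it stood at 48.9, 46.6 and 47.9 CPM at the high dose, inside the vehicle range. The 2 gingers at 500 µg/mL differed in 1 of the 8 genes, PLAU, lower with ZRR by -0.28 ± 0.05 (edgeR, adjusted p = 0.000109), in a comparison where 0.712% of all genes were called. For TIMP2 the difference between gingers was -0.01 with a 95% interval of -0.09 to 0.07, and for TIMP3 it was -0.02 with an interval of -0.22 to 0.18. MMP7 was at 3.90 ± 0.219 CPM with ZRR and 4.96 ± 0.152 CPM with ZR, with no overlap between libraries, and did not pass (edgeR, adjusted p = 0.274). At 100 µg/mL ZR, MMP7 was called higher than vehicle (0.52 ± 0.11; edgeR, adjusted p = 0.0106), a call lost with the length term at 0.40 (edgeR, adjusted p = 0.13; range over 7 alternatives 0.00317 to 0.13), with DESeq2, and without vehicle replicate 1, vehicle replicate 2 or ZR medium replicate 3.

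PT at 500 µg/mL raised MMP7, and edgeR called none of the other 7 genes, where 1.4% of all genes were called. TIMP2, at -0.14 ± 0.04 (edgeR, adjusted p = 0.0654), was called with DESeq2, with its size factors in edgeR and without the 3 outlying libraries. MMP7 was at 5.32, 7.44 and 5.99 CPM, all above the vehicle range but spread more widely than in any other group. The change was 0.62 ± 0.11 (edgeR, adjusted p = 0.000434), or 1.53-fold, and with the 6 libraries of PT high and vehicle alone in the fit it did not pass (edgeR, adjusted p = 0.186; range over 7 alternatives 0.000314 to 0.186). High against low, the difference of 0.54 ± 0.11 (edgeR, adjusted p = 0.00296; 0.549% of genes called) fell to 0.41 without PT high replicate 2 and was then not called (edgeR, adjusted p = 0.128). PT high was above ZRR high in MMP7, as ZRR minus PT gave -0.66 ± 0.11 (edgeR, adjusted p = 4.58e-05; 4.3% of genes called). PT high against ZF high gave 0.46 ± 0.11 (edgeR, adjusted p = 0.0315; 0.269% of genes called), which leaving out PT high replicate 2 or 3 or ZF high replicate 1 or 3 removed. In the same matched-dose comparisons TIMP2 and TIMP3 were lower with either ginger than with PT or ZF. TIMP3 differed by -0.49 ± 0.09 for ZRR against PT (edgeR, adjusted p = 0.000423), -0.47 ± 0.09 for ZR against PT (edgeR, adjusted p = 0.000584; 4.12% of genes called), -0.77 ± 0.09 for ZRR against ZF (edgeR, adjusted p = 2.86e-08; 4.09%) and -0.76 ± 0.09 for ZR against ZF (edgeR, adjusted p = 2.21e-08; 4.87%). TIMP2 differed by -0.24 to -0.30 in those 4 comparisons. With only the libraries compared in the fit, TIMP2 was not called in any of the 4 (highest adjusted p 0.134), nor TIMP3 against PT (0.0508 for ZRR and 0.0974 for ZR), nor MMP7 for ZRR against PT (0.0635), while TIMP3 against ZF was still called. PLAU was higher with ZR than with ZF by 0.30 ± 0.05 (edgeR, adjusted p = 5.55e-06; 0.141 with only the libraries compared), and than with PT by 0.15 ± 0.05 (edgeR, adjusted p = 0.0447), a call lost when any 1 of the 6 libraries was left out.

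The change from 20 to 500 µg/mL was also set against that of another extract. TIMP3 differed in this dose effect for ZRR against PT, ZRR against ZF and ZR against ZF, MMP7 for either ginger against PT and for PT against ZF, PLAU for ZR against ZRR or ZF, and TIMP2 for either ginger against ZF. These are 10 calls of 48, and the share of all genes called was 0.14% for ZRR against ZR, 2.59% for ZRR against PT, 0.981% for ZRR against ZF, 1.8% for ZR against PT, 1.24% for ZR against ZF and 0.14% for PT against ZF.

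ZF, the jujube extract, gave no call for any of the 8 genes at 3 doses. At 500 µg/mL edgeR called 0 of 8, with TIMP1 and TIMP2 at an unadjusted p under 0.05, at 100 µg/mL 0 with 0 such genes and at 20 µg/mL 0 with MMP7 alone, and DESeq2 called 0 at each dose. The background was 0.00584%, 0.0117% and 0.0117% of all genes called. An unadjusted p under 0.05 (edgeR) was held by 1856, 1125 and 1888 of the 17129 genes. For TIMP3 the 95% interval of the change at 500 µg/mL was -0.07 to 0.28, and for PLAU it was -0.15 to 0.03.

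TIMP1 had the narrowest range of group means of the 8 genes. Its highest and lowest group means, 83.4 CPM with CR low and 69.1 CPM with vehicle, differed 1.21-fold, and each of the 19 pairs of neighbouring groups in the order of means overlapped. TIMP1 was the highest of its 3 libraries in each of the 3 outlying libraries, at 83.2 CPM in ZRR low replicate 2, 91.1 in ZR low replicate 3 and 92.7 in ZF high replicate 2. Its longest transcript has 1095 bases, the shortest of the 8, and the 3 genes most like it in group means were the ribosomal protein genes RPL7A, RPS14 and RPL31 (Pearson correlations 0.90, 0.89 and 0.88 over 20 groups). With the length slope of each library as a covariate, the change with CR high was 0.19 (edgeR, adjusted p = 2.15e-05) and with CR low 0.05 (edgeR, adjusted p = 0.494; range over 7 alternatives 0.00109 to 0.494). MMP7 (1323 bases) and PLAUR (1610 bases) are also short, and TIMP3 (4603 bases) is the longest. The correlation over genes of fold change with transcript length describes the libraries. In comparisons with vehicle it was negative for every extract group, from -0.444 (ZRR low) to -0.0925 (CR high). It was -0.379 for CR low, -0.437 for ZR medium and 0.0357 for wortmannin. The mean length slope was 1.07 in vehicle and at most 1.06 in an extract group (PT low).

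**Figure D4:**
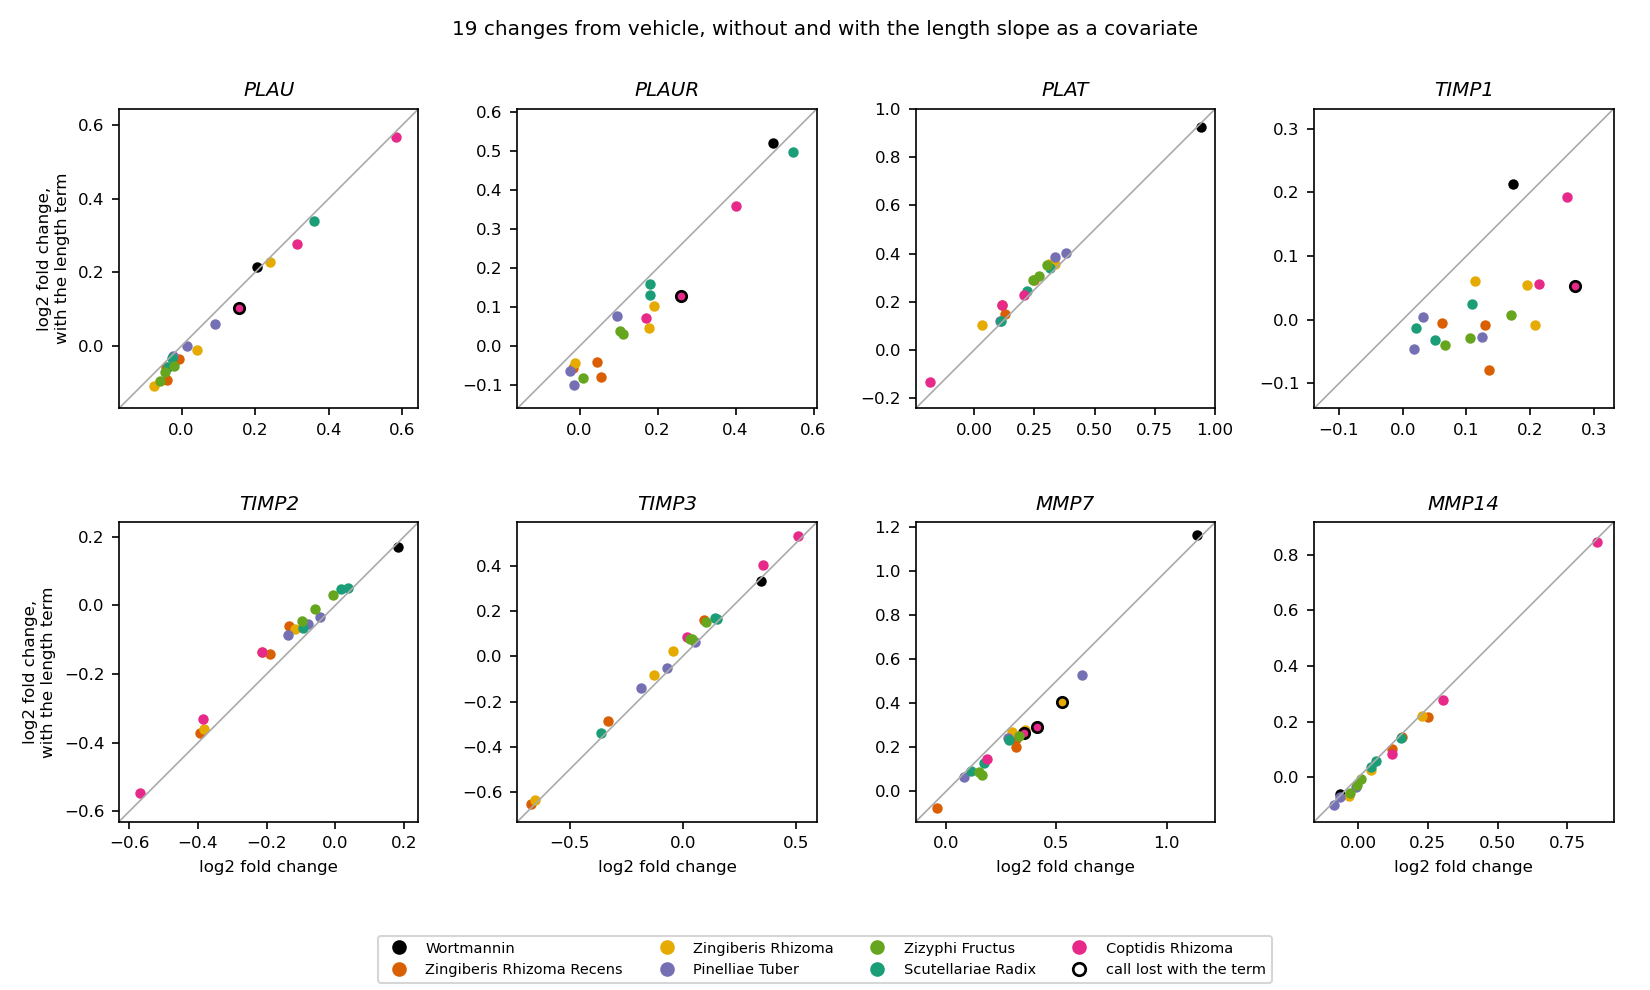
Each point is 1 of the 19 changes from vehicle, with the log2 fold change on the horizontal axis and the same with the length slope as covariate on the vertical axis; the grey line is identity and a black ring marks a call lost with the term. TIMP1 and PLAUR lie mostly under the line, and the 6 rings are PLAU, PLAUR, TIMP1 and MMP7 with CR low and MMP7 with CR medium and ZR medium.

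In the order of group means the first group stood apart from the next for some genes, but not for PLAUR or TIMP1. For PLAU, CR high stood above SR high and CR medium, which overlapped. For MMP14 and TIMP3 CR high was first with no overlap with the second group, and for PLAT, TIMP2 and MMP7 it was wortmannin. How often other genes set these groups apart was not tested. Against vehicle, 35.1% of all genes were called with CR high and 25.3% with wortmannin. At the lower end TIMP2 was lowest with CR high, separated from ZRR high, and TIMP3 was lowest with the 2 gingers at 500 µg/mL, whose ranges overlapped, followed by SR high. Elsewhere neighbours mostly overlapped: 15 (TIMP3) to 19 (TIMP1) of the 19 neighbouring pairs per gene did so. Over the 20 group means of log2 CPM, TIMP2 had a correlation of -0.78 with MMP14 and of -0.55 with PLAU, while PLAU had one of 0.74 with MMP14 and 0.62 with PLAUR, and PLAT had one of 0.64 with MMP7. TIMP2 and TIMP3 had one of only 0.19. Among the genes most like PLAU were GFPT2 and IRAK2 (0.96 for each), those most like TIMP2 were PDXK, TGM2 and LBH (0.97, 0.96 and 0.96), and those most like MMP14 were INA, E2F6 and ZNF783 (0.92, 0.92 and 0.91). For PLAUR they were MATN3, SMOC1 and SMIM14, for PLAT MTSS1, IQGAP2 and TAPBP, for TIMP3 COL5A1, LIMA1 and SOX4, and for MMP7 GNG11, C1R and HPGD, with correlations from 0.82 to 0.88.

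Of 24 further genes of plasminogen activation and its control 16 could be tested. With CR high 5 rose and 2 fell, with a median log2 change of 0.04 against 0.01 over all genes, where 35.1% of all genes were called. With wortmannin 7 rose and 3 fell (median 0.32 against 0.01), where 25.3% of all genes were called. SERPINE2, an inhibitor of urokinase, went from 48.6 ± 2.59 CPM to 76.0 ± 4.09 with CR high and 76.5 ± 1.33 with wortmannin. TFPI, the inhibitor of the tissue factor pathway, had the largest rise of the list with wortmannin, from 45.1 ± 1.02 to 77.2 ± 3.34 CPM (0.78 ± 0.05; edgeR, adjusted p = 2.72e-18), and was also called with ZRR high and SR high. Thrombomodulin, THBD, had the largest rise with SR high, to 50.6 ± 2.41 from 35.6 ± 0.451 CPM (0.51 ± 0.06; edgeR, adjusted p = 2.26e-08), where 5 genes of the list rose and 1 fell and 23.9% of all genes were called. PROCR, the endothelial protein C receptor, had the largest fall with ZR high, SR high and CR high (-0.35, -0.22 and -0.39). With PT high SERPINE2 and TFPI2 rose.

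Of 22 further metalloproteinases and their cell-surface regulators 12 could be tested. Wortmannin raised 8 of the 12 and lowered none, with a median log2 change of 0.25, where 25.3% of all genes were called. MMP2, the gelatinase that MMP14 activates, rose from 5.15 ± 0.416 to 9.16 ± 0.318 CPM (0.83 ± 0.11; edgeR, adjusted p = 2.27e-08). The same gene fell with ZRR high, to 3.80 ± 0.0377 CPM (-0.43 ± 0.12; edgeR, adjusted p = 0.0228), and with SR high, to 3.82 ± 0.619 CPM (-0.42 ± 0.12; edgeR, adjusted p = 0.0054). CR high raised 5 of the 12 and lowered 2, where 35.1% of all genes were called. TIMP4, the fourth inhibitor of the family, had the largest rise there, from 7.46 ± 0.657 to 13.8 ± 1.28 CPM (0.90 ± 0.10; edgeR, adjusted p = 2.35e-10), and MMP24, a membrane-type metalloproteinase, the largest fall, from 95.7 ± 4.91 to 58.4 ± 1.72 CPM (-0.71 ± 0.06; edgeR, adjusted p = 8.72e-14). MMP24 also fell with both gingers at the high dose (-0.40 with ZRR and -0.43 with ZR), and MMP17 had the largest rise of the list with both (0.42 and 0.51).

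Among 13 tested ADAM and ADAMTS proteases, ADAMTS10 had the largest rise with wortmannin, from 15.0 ± 1.24 to 36.3 ± 2.19 CPM (1.28 ± 0.08; edgeR, adjusted p = 5.29e-18), and with ZR, PT, SR and CR at the high dose (0.46, 0.40, 0.28 and 0.48). ADAM10, the sheddase of many cell-surface proteins, had the largest fall with CR high, from 224 ± 8.05 to 164 ± 2.27 CPM (-0.45 ± 0.06; edgeR, adjusted p = 3.16e-08). ADAM19 had the largest fall with ZRR high and SR high (-0.43 and -0.39). Of 18 tested inhibitors of other proteases, 6 rose and 2 fell with CR high, where 35.1% of all genes were called. SERPINB8 had the largest rise of that list with both gingers, SR and CR at the high dose, and with CR high it went from 4.21 ± 0.507 to 13.8 ± 0.671 CPM (1.71 ± 0.11; edgeR, adjusted p = 9.46e-18). SERPINB9, an inhibitor of granzyme B, had the largest fall with CR high, from 44.4 ± 0.661 to 30.3 ± 1.55 CPM (-0.55 ± 0.07; edgeR, adjusted p = 1.63e-08), and with SR high (-0.44).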

How the data were processed

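Directional mRNA libraries of A549 RNA were read as 100-base pairs, per the labels' protocols. The authors deposited estimated counts per Ensembl gene, not normalised: totals differ between libraries and 9.06% of values are not whole. RSEM 1.3.3, STAR 2.7.3a, Trim Galore 0.6.5, FastQC 0.11.9 and the build GRCh38 stand in the submitters' processing notes. The annotation used for counting and its strand setting were not given in the sources used here, and reads of overlapping and antisense genes may not have been told apart. Of 269 columns the 60 with labels of this series were used and 209 were not.

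Counts were rounded and tested with edgeR 4.0.16 under R 4.3.3 (robust quasi-likelihood, TMM scaling, genes kept by filterByExpr on the groups). One fit held all 60 libraries, with 40 residual degrees of freedom and a common estimate of the spread. Standard errors are the fold change over the square root of F, and intervals are 95%. There were 37 comparisons: 19 with vehicle, 6 of high against low dose, 6 between extracts at 500 µg/mL and 6 of dose effects between extracts. P-values were adjusted within a comparison. No 2 libraries were identical (replicates differed by a chi-square per degree of freedom of at least 2.10). Positions and transcript lengths are from GENCODE 29.

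The 8 genes, the 4 further lists and the rule for named genes were chosen with earlier results of these data known. The rule names the 8 genes, the largest called rise and fall of each list at the high doses and with wortmannin (mean log2 CPM at least 1), and the 3 most correlated genes per member; some genes it names are not reported here. Genes named beyond it, such as SERPINE2 and TFPI2, were chosen after their values were seen.

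Alternatives were DESeq2 size factors, no filter, DESeq2 1.42.0, only the libraries compared, a replicate block, a length slope as covariate and each library left out. The fit without 3 outlying libraries and the dose-effect comparisons were added after the data were seen. Same-numbered replicates deviated together (every correlation over 0.1) in 1 comparison, PT high against ZF high, at 0.131, 0.358 and 0.167.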

Additional observations from a re-analysis of the deposited data

Results flagged for a closer look

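These 10 differences between extracts in the change from 20 to 500 µg/mL passed edgeR's test of the difference itself. They are log2 values, the first extract's change minus the other's, and comparisons that share an extract share its libraries.

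For TIMP3 the dose effect of ZRR was below that of PT by -0.52 ± 0.13 (edgeR, adjusted p = 0.0151; 2.59% of all genes called) and below that of ZF by -0.83 ± 0.13 (edgeR, adjusted p = 2.65e-05; 0.981%), and that of ZR was below that of ZF by -0.60 ± 0.13 (edgeR, adjusted p = 0.00365; 1.24%). Each was called without any 1 of the 12 libraries and lost with only those libraries in the fit, and that of ZR against ZF also with no filter on low counts. TIMP2 gave -0.22 ± 0.06 for ZRR against ZF (edgeR, adjusted p = 0.037) and -0.23 ± 0.06 for ZR against ZF (edgeR, adjusted p = 0.0249), kept on leaving out 6 and 9 of the 12 libraries. Both were lost with no filter and with only the libraries compared (edgeR, highest adjusted p 0.488 and 0.712).

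PLAU gave -0.32 ± 0.07 for ZRR against ZR (edgeR, adjusted p = 0.0152; 0.14%), called in 3 of the 12 fits with 1 library left out, and 0.36 ± 0.06 for ZR against ZF (edgeR, adjusted p = 0.000451), called in all 12. Both were lost with no filter and with only the libraries compared (edgeR, highest adjusted p 0.912 and 0.264).

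MMP7 gave -0.90 ± 0.16 for ZRR against PT (edgeR, adjusted p = 0.000302), called in all 12 and under all 7 alternatives. For ZR against PT it gave -0.59 ± 0.15 (edgeR, adjusted p = 0.0307; 1.8%), and for PT against ZF 0.70 ± 0.15 (edgeR, adjusted p = 0.0242; 0.14%), called in 6 and 5 of the 12. The first was lost with no filter, the length term, without the 3 outlying libraries and with only the libraries compared (edgeR, highest adjusted p 0.333), and the other with no filter, DESeq2 and only the libraries compared (highest adjusted p 0.944).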

How the results depend on the processing

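Of the 60 calls on the 8 genes in the comparisons with vehicle, between doses and between extracts, DESeq2 made 58, its size factors in edgeR 59, the length slope 54, no filter 53 and only the libraries compared 41, all in the same direction. The fit with a replicate block made all 60: no call changed, as with 6 members for wortmannin and 1 for PT high against ZF high. In these comparisons the number of members called moved by more than 1.5 times as follows. With only the libraries compared it was 0 for PT high, 3 for CR low, 1 for ZRR and 0 for ZR and for PT between doses, 0 for ZRR or ZR against PT, 1 for either against ZF and 0 for PT against ZF. With no filter it was 0 for ZRR medium and for PT against ZF. With the length slope it was 1 for ZR medium and for CR low and 2 for PT against ZF. With DESeq2 it was 1 for ZRR low and for ZR medium, 2 for PT high and 0 for PT against ZF, and with its size factors 2 for PT high. Without the 3 outlying libraries it was 2 for ZRR medium, PT high and PT against ZF. CR between doses went from 4 to 6 with the length slope, and every other move in these comparisons was by 1. For the dose-effect differences, only the libraries compared left 1 for ZRR against PT and 0 for the other 5, and no filter left 2 for ZRR against PT, 1 for ZRR against ZF and 0 for the other 4. The length slope gave 3 for ZRR against PT and 2 for ZR against PT, DESeq2 gave 3, 2 and, for PT against ZF, 0, and leaving out the 3 libraries gave 2 for ZR against PT. The cause was not tested. Leaving out single libraries gave ranges of 0 to 1 members for ZRR medium, PT between doses and PT against ZF, 1 to 2 for ZR medium and PT high, 2 to 3 for SR high and ZR against PT, 5 to 6 for CR high, 3 to 6 for CR medium, 2 to 5 for CR low, 3 to 4 for SR and 4 to 5 for CR between doses; for the dose-effect differences, 0 to 1 for ZRR against ZR and PT against ZF, 2 to 3 for ZRR against PT and ZR against ZF, 1 to 2 for ZRR against ZF and 0 to 2 for ZR against PT. The other counts stayed at 6 for wortmannin, 2 for ZRR high, 3 for ZR high, 2 and 3 for ZRR and ZR between doses, 1 for ZRR against ZR, 3 for ZRR against PT, 2 for ZRR against ZF, 3 for ZR against ZF and 0 elsewhere. PLAT and MMP14, with few counts, allow only changes of several times their standard errors of 0.17 and 0.12 to be called.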
